A study of Mus musculus with 6 samples.

Results

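NANOG binding was compared between mouse embryonic stem cells (ESCs) with high and with medium levels of an Esrrb-GFP reporter, and the 9425 regions bound by NANOG in Esrrb-GFP high cells were followed into Esrrb-GFP medium cells. Binding in a fraction means that the exact chromosome, start and end of a region were listed for it, which put 9654 of the 23767 distinct regions of the series in the high list, the medium list or both. The cells were ESCs of a single line derived from E14Tg2a, in which a destabilised GFP is translated from the Esrrb transcript, grown in serum and LIF. They were fixed and then sorted, the high gate taking the top 10% of the GFP distribution and the medium gate the 15% next to the negative cells. A sorted negative fraction and OCT4 ChIP-Seq of the same 3 fractions served here only to describe the NANOG regions. One NANOG library, made from pooled ChIP material, stands on each side, so no spread between replicates and no test between fractions can be given.

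NANOG is a homeodomain factor that sustains self-renewal of ESCs, and ESRRB is an orphan nuclear receptor encoded by one of its direct target genes. OCT4, a POU-domain factor encoded by Pou5f1, binds many of the same enhancers, often together with SOX2 at a composite Oct-Sox element. Within a culture, the levels of NANOG and ESRRB vary from cell to cell, and cells low in both are closer to differentiation.

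The lists hold positions only, without reads or signal, so the depth behind them is unknown. The authors had merged the peaks of all datasets and had dropped a region from a fraction where it kept under 50% of its highest depth-normalized signal. A region called lost here is therefore one that fell below that limit in medium, not one shown to carry no NANOG. Intervals given in parentheses are 95% Wilson intervals of a share or Newcombe intervals of a difference. They describe the counting error of these region lists alone, since regions are not replicates.

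The sequences of 4 pluripotency loci give examples of kept and lost regions near the same gene. For Esrrb, Tcfcp2l1 (also called Tfcp2l1, a naive pluripotency factor), Sox2 and Tbx3 (a T-box factor of the naive network), the widest kept and the widest lost region of at most 300 bp within 20 kb of the gene are printed from the mm9 (NCBIM37) genome. Klf4 had no NANOG region within that distance, and the only one at Nanog was wider. Capitals mark matches to the NANOG (TAATGG), SOX (CATTGT), ESRRB (TCAAGGTCA, 1 mismatch allowed) or Oct-Sox motifs, on either strand and inside the printed interval.
Esrrb kept, chr12:87839812-87840111, plus strand: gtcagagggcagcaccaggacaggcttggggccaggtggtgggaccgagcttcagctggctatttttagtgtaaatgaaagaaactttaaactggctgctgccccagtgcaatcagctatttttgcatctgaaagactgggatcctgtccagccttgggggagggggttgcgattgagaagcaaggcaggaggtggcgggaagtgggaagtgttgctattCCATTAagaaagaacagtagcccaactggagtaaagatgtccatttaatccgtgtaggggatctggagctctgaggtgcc
Esrrb lost, chr12:87845732-87845791, plus strand: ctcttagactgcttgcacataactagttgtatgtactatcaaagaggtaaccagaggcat
Tcfcp2l1 kept, chr1:120538992-120539131, plus strand: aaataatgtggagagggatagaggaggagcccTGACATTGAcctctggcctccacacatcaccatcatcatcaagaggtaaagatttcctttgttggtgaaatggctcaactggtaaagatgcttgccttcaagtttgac
Tcfcp2l1 lost, chr1:120522152-120522371, plus strand: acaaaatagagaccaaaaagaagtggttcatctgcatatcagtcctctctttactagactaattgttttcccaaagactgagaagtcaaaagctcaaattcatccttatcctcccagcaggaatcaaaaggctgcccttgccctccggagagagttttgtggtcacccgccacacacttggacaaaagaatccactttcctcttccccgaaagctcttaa
Sox2 kept, chr3:34545172-34545431, plus strand: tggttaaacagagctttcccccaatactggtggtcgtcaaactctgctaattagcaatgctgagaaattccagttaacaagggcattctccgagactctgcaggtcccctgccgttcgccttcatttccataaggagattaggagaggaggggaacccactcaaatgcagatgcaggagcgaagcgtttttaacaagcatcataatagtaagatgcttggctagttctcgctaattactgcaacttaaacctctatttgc
Sox2 lost, chr3:34552952-34553031, plus strand: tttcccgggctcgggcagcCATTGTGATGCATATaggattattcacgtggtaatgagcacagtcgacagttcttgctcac
Tbx3 kept, chr5:120145052-120145111, plus strand: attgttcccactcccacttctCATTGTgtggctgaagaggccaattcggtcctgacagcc
Tbx3 lost, chr5:120107572-120107831, plus strand: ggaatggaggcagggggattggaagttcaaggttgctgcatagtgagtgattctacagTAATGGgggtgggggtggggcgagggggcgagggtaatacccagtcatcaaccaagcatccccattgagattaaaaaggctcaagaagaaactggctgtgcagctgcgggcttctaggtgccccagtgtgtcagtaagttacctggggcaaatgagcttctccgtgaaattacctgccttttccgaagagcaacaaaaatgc

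The Esrrb pair lies in introns of the gene, 137895 and 143695 bp from its start. OCT4 was listed at the kept one in all 3 fractions and at the lost one in none. At Tcfcp2l1 the order was the opposite, with the kept intronic region free of OCT4 and the lost one, 2260 bp upstream of the gene, bound by OCT4 in high and medium. The lost Sox2 region held an Oct-Sox match overlapping a SOX match, and OCT4 stayed listed there in all 3 fractions while NANOG was listed in high alone. Both Sox2 regions fall in introns of an overlapping gene model, as does the lost Tbx3 region. None of the 8 intervals lies in an annotated UTR.

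Medium cells listed 4729 NANOG regions, so 4500 of the 9425 high regions were kept, which is 47.7% (46.7 to 48.8), and 4925 were lost. The lists cover 1340200 bp in high and 714460 bp in medium. OCT4 kept a larger share over the same step, 78.7% of its 12449 high regions. NANOG binding in medium was nearly a subset of that in high, since 229 regions, or 4.84% (4.27 to 5.49) of the medium list, were gained. For OCT4, the gained regions made up 32.3% of the medium list. In negative cells NANOG was listed at 154 of the kept regions, 3.42%, and at 83 of the lost ones, 1.69%. The calls in medium and in negative both depend on the highest signal of a region, so they are not independent.

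Regions that shared OCT4 kept NANOG more often. Of the 3675 high regions at which OCT4 was also listed in high (co-bound regions), 54.2% (52.6 to 55.8) were kept, against 43.6% (42.3 to 44.9) of the 5750 without it, a difference of 10.6 percentage points (8.57 to 12.7). Within quartiles of region width the difference was 6.74 points. Read the other way, OCT4 was listed in high at 44.3% of the kept and 34.2% of the lost regions.

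The OCT4 state in the other fractions moved with NANOG as well. Regions without OCT4 in any fraction kept 42.7% (n = 5295), and those with OCT4 in high alone 47.4% (n = 479). Where OCT4 was listed in high and medium the kept share was 54.1% (n = 1571), and where it was listed in all 3 fractions it was 56.4% (n = 1517). The order was not strict. Regions with OCT4 in high and negative but not medium kept 55.6% (n = 108). Those with OCT4 in medium and negative but not high kept 57.0% (n = 149), and those with OCT4 in medium alone 50.7% (n = 276). The 30 regions with OCT4 in negative cells alone had the highest share, 66.7%, but with an interval of 48.8 to 80.8 that covers most other classes.

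**Figure D1:**
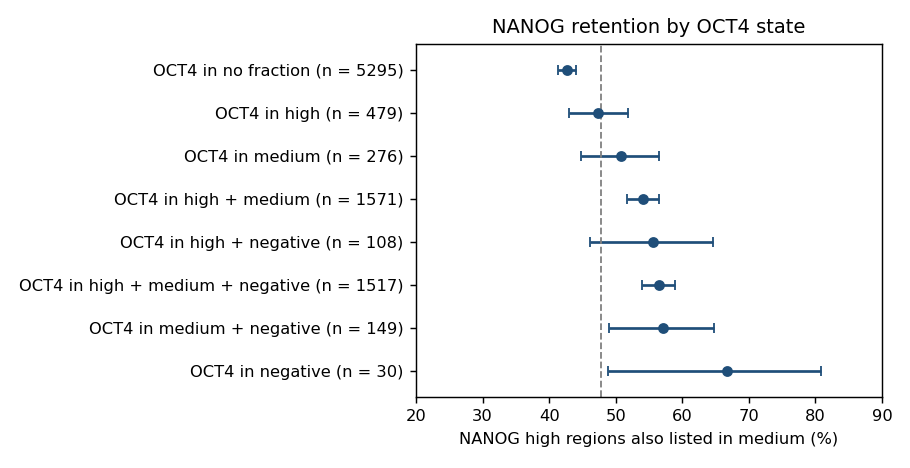
Share of NANOG high regions kept in medium (x axis, percent) for each set of fractions in which OCT4 was listed (y axis, number of regions in parentheses). Points are shares, bars 95% Wilson intervals, and the dashed line the 47.7% over all high regions; regions without OCT4 lie below the line at 42.7% and those with OCT4 in all 3 fractions above it at 56.4%.

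At the co-bound regions the departure of NANOG was for the most part not matched by OCT4. In medium cells 1706 of the 3675 regions (46.4%) listed both factors, 1382 (37.6%) OCT4 alone, 287 (7.81%) NANOG alone and 300 (8.16%) neither. OCT4 was thus kept at 84.0% (82.8 to 85.2) of regions at which NANOG was kept at 54.2%. OCT4 was listed in medium at 85.6% of the regions that kept NANOG and at 82.2% of those that lost it, a difference of 3.44 points (1.05 to 5.84). In negative cells OCT4 was listed at 46.0% and 42.2% of them, a difference of 3.81 points (0.586 to 7.02). OCT4 regions without NANOG in high kept OCT4 at 76.4% (n = 8774), but they were not matched to the co-bound regions for width. OCT4 also appeared in medium at regions where it was not listed in high, at 225 of 2507 kept NANOG regions (8.97%) and at 200 of 3243 lost ones (6.17%).

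Narrow regions were lost more often. The kept share was 35.7% for regions of 40 bp, the narrowest listed, and 41.8% for those of 60 bp. It was 53.1% at 80 to 100 bp, 49.6% at 120 to 160 bp, 50.2% at 180 to 240 bp and 53.1% at 260 to 360 bp. From 380 to 1180 bp it was 60.9% (56.1 to 65.4). The step therefore lay between 60 and 80 bp, with a plateau above it and a second increase among the widest regions. Median widths were 120 bp for kept and 100 bp for lost regions, and 40 bp regions made up 11.2% of the kept and 18.5% of the lost.

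Width was not independent of OCT4. The share of regions with OCT4 in high was 5.33% in the narrowest quartile of width and 73.8% in the widest. The kept share differed between these quartiles by 15.4 points (12.6 to 18.2) over all regions and by 10.9 points among regions without OCT4 in any fraction. The OCT4 list showed a like order, its kept share being 68.1% at 40 to 60 bp and 88.1% from 220 bp upward. Widths are those of peaks merged over all 6 libraries, so the number of libraries in which a peak was called and the width cannot be told apart.

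The kept share also differed with distance to genes. Within 1 kb of an annotated transcription start site 275 of 498 regions were kept, or 55.2% (50.8 to 59.5). The share was 50% at 1 to 5 kb, 49.2% at 5 to 20 kb and 47.2% at 20 to 50 kb, and 43.9% (42.0 to 45.8) of the 2596 regions further away. Regions within 1 kb exceeded those beyond by 7.89 points (3.38 to 12.3), and regions within 5 kb exceeded those beyond by 4.52 points. With OCT4 in high the shares were 61.3% within 1 kb (n = 212) and 53.8% beyond, and without it 50.7% (n = 286) and 43.2%. The position inside or outside genes made less difference, with 47.9% of exonic, 46.6% of intronic and 48.6% of intergenic regions kept.

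Base composition followed the same direction. In the 200 bp around the region centre, the kept share was 43.3% in the lowest quartile of GC content, then 47.6%, 48.6% and, in the highest, 52.0%. Among regions over 20 kb from a start site the shares were lower but in the same order, from 42.2% to 48.9%. The number of CpG dinucleotides made little difference, with 47.3% kept at regions with none (n = 2237) and 50.9% at those with 5 to 9 (n = 784). By chromosome the kept share ran from 43.5% on chromosome 1 to 52.3% on chromosome 15. The X chromosome, at 48.0% of 296 regions, did not stand apart from the autosomes at 47.7%.

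**Figure D2:**
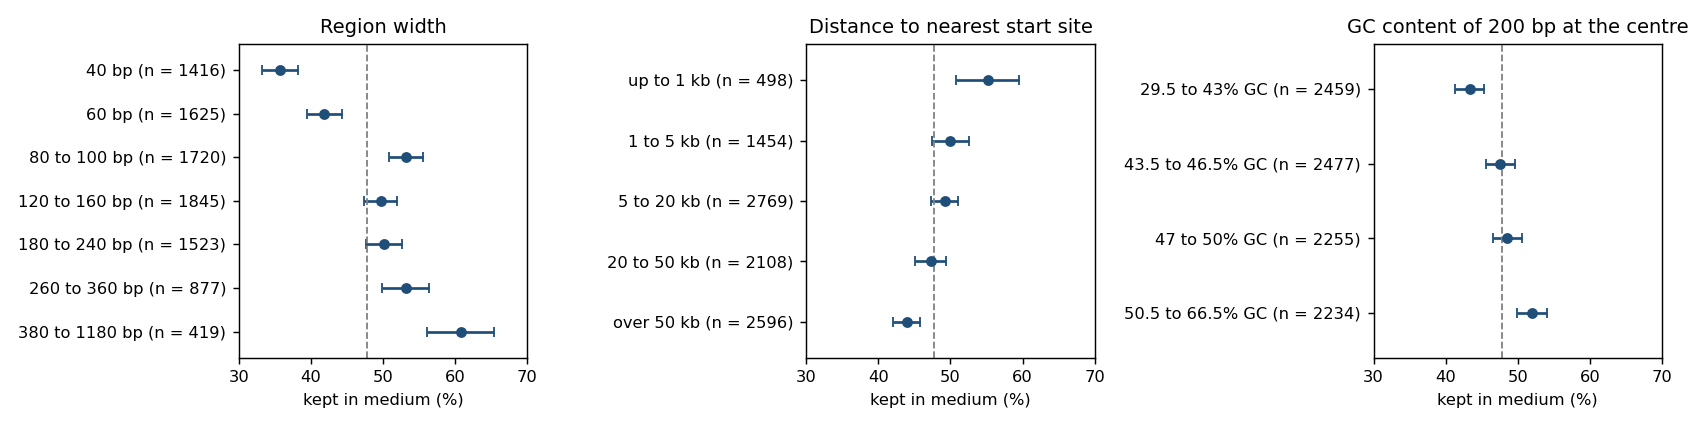
Share of NANOG high regions kept in medium (x axes, percent) by region width, by distance of the centre to the nearest transcription start site and by quartile of GC content (y axes, number of regions in parentheses). Points are shares, bars 95% Wilson intervals, and dashed lines the 47.7% over all regions; the share runs from 35.7% at 40 bp to 60.9% from 380 bp, from 55.2% near start sites to 43.9% over 50 kb away, and from 43.3% to 52.0% with GC content.

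Kept and lost regions held the NANOG motif alike. Motifs were searched on both strands within 100 bp of each region's centre, with the windows of equal length 10 kb downstream as background. That background was not matched for base composition. Its median GC content was 43.5%, against 47% in kept and 46% in lost regions. TAATGG, the letters of the NANOG motif, occurred in 12.7% of kept and 13.7% of lost regions, against 8.07% of the downstream windows, and the difference of kept minus lost was -1.04 points (-2.40 to 0.34). For the SOX letters CATTGT the shares were 24.9%, 23.9% and 11.5%. For the octamer ATGCAAAT, the POU-factor motif, they were 5.16%, 4.43% and 1.42%. The Oct-Sox element, allowed 2 mismatches and overlapping both of the previous motifs, was found in 6.02% of kept, 5.99% of lost and 0.594% of downstream windows. KLF letters, GGGTGTGG or GGGCGTGG, were found in 4.31%, 4.02% and 2.20%. All of these motifs were more frequent in NANOG regions than downstream, and none of the 5 separated kept from lost regions beyond the counting interval.

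The ESRRB motif did. TCAAGGTCA with at most 1 mismatch occurred in 17.7% of kept and 14.5% of lost regions, a difference of 3.15 points (1.66 to 4.64), against 6.64% of downstream windows. The same letters in reversed order were found in 4.98% of kept and 5.36% of lost regions. Counted from the motif, 795 of 1510 regions with a match were kept, 52.6% (50.1 to 55.2), and 46.8% (45.7 to 47.9) of the 7915 without, a difference of 5.84 points (3.09 to 8.58). An exact match was linked to 57.4% (50.5 to 63.9; n = 204) and a match with 1 mismatch to 51.9% (n = 1306). The difference was 5.18 points within quartiles of width, 5.27 within quartiles of GC content and 5.31 within quartiles of width split by OCT4. It was smaller with other windows, 3.53 points with matches within 50 bp of the centre and 3.83 points within 250 bp. These 6 motifs were compared without adjustment of the intervals for their number.

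**Figure D3:**
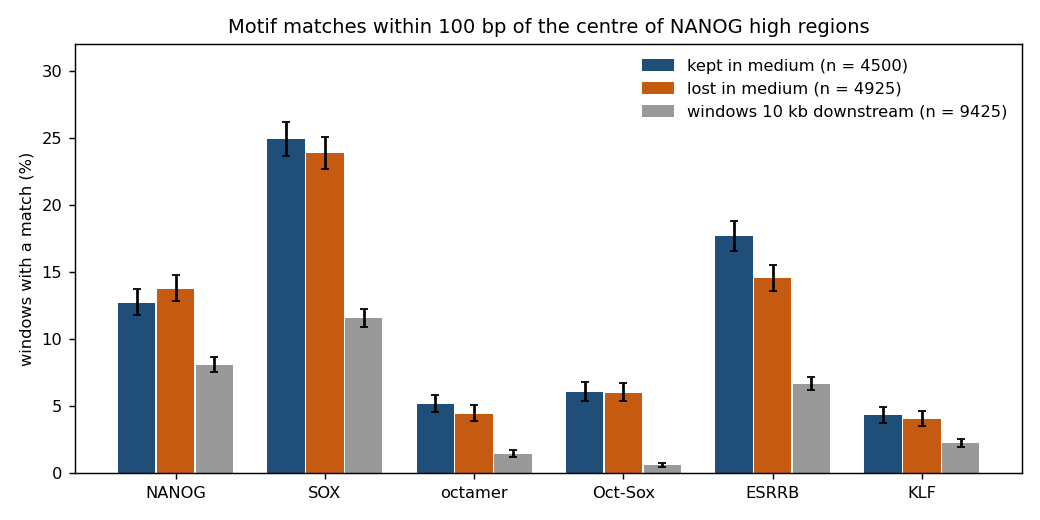
Share of 200 bp windows with at least 1 motif match (y axis, percent, from 0) for 6 motifs (x axis) in kept and lost NANOG high regions and in windows 10 kb downstream of all high regions; whiskers are 95% Wilson intervals. All motifs exceed the downstream windows, and kept and lost bars differ most for ESRRB, at 17.7% and 14.5%.

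Regions were then split by OCT4 in high and an ESRRB match into 4 classes. With both, 347 of 572 regions were kept, 60.7% (56.6 to 64.6). The share was 53.0% with OCT4 alone (n = 3103), 47.8% with an ESRRB match alone (n = 938) and 42.8% with neither (n = 4812). OCT4 itself was kept at 86.7% of the co-bound regions with and 83.5% of those without an ESRRB match, and the interval of that difference, -0.0998 to 6.05 points, includes 0. When features were combined, co-bound regions over 60 bp wide with an ESRRB match kept 60.7% of 549, and regions of 40 to 60 bp without OCT4 in any fraction, without an ESRRB match and over 50 kb from a start site kept 33.8% of 672. These 2 combinations were assembled after the single features had been seen, and even so the classes overlap broadly, since 216 of the first were lost and 227 of the second kept.

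Single loci show how loosely the motif and the state of a region were tied. The following intervals, chosen after their states had been seen, have ESRRB matches in capitals, and the first was kept while the second was lost. They lie 15460 bp from the start of Klf2, a naive Krüppel-like factor, on its downstream side, and 1008 bp upstream of Prdm14, a repressor of FGF signalling and DNA methylation genes.
Klf2 kept, chr8:74858332-74858451, plus strand: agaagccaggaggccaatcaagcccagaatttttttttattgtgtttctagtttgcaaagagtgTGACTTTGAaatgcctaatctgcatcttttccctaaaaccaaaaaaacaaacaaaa
Prdm14 lost, chr1:13118112-13118391, plus strand: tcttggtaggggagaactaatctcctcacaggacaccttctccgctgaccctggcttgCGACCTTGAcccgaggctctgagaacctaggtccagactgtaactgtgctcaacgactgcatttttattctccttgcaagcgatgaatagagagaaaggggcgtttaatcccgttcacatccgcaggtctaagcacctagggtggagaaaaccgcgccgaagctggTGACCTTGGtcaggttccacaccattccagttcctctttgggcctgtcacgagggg

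The Klf2 interval holds 1 match and had OCT4 in high and medium. The Prdm14 interval holds 2 matches and had OCT4 in high alone. An ESRRB match is thus no label of a kept region, as 715 regions with one were lost.

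Kept regions were not gathered next to kept regions at most distances. Regions with another NANOG high region within 12500 bp kept 50.5%, and isolated ones 46.7%, a difference of 3.80 points (1.57 to 6.04). When the nearest region lay within 1 kb, the kept share was 52.1% if that neighbour was kept and 52.6% if it was lost. At 1 to 5 kb the shares were 53.4% and 45.6%, a difference of 7.77 points (0.646 to 14.8), and from 5 kb to 12500 bp they were 47.4% and 50.1%. Of the 5 distance classes, 1 to 5 kb was the only one in which the interval of the difference did not include 0. Regions that are each other's nearest entered once for either member, so they were not counted independently and these intervals are too narrow. They were also not adjusted for the 5 classes, so the difference at 1 to 5 kb is no sign of local grouping by itself. Of the 579 consecutive pairs within 1 kb, both members were kept in 160, neither in 130 and 1 of the 2 in 289, or 49.9%. Kept and lost regions were thus interspersed down to distances under 1 kb.

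**Figure D4:**
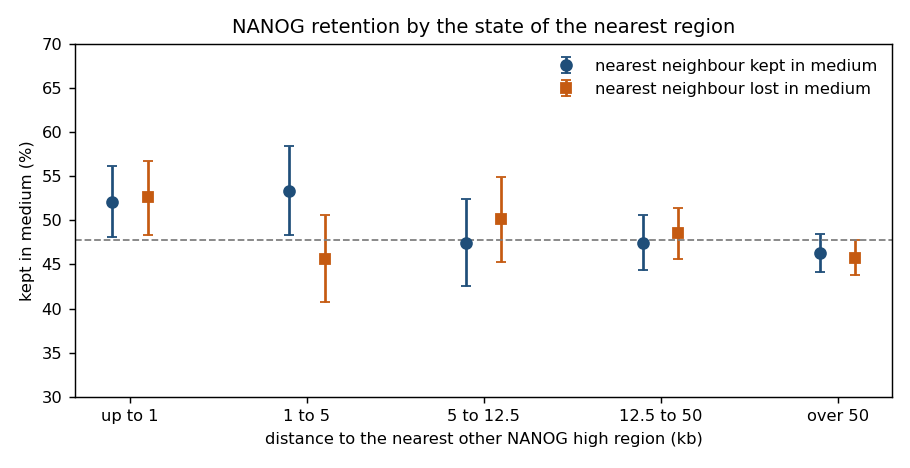
Share of NANOG high regions kept in medium (y axis, percent) by distance to the nearest other high region (x axis, kb), for regions whose nearest neighbour was kept (circles) or lost (squares); bars are 95% Wilson intervals and the dashed line is the 47.7% over all regions. Circles and squares lie at 52.1% and 52.6% within 1 kb and at 46.3% and 45.8% beyond 50 kb.

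The same mixture was seen over genes. Of the 5222 protein-coding genes with a high region within 20 kb of the gene body, 1659 had 2 or more. Among these, 316 kept all, 322 kept none and 1021 kept some. No gene of the 55 with at least 6 regions kept all of them or lost all of them. The counts expected if regions were kept independently, at the 47.7% of all high regions, were not computed. Esrrb itself came first among the 55 genes, with 6 of 7 regions kept. The fractions were sorted on a reporter of this gene, and a first rank among 55 small counts was not tested against chance.

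All 7 Esrrb regions lie between 105245 and 143695 bp into the gene, and 4 of them had OCT4 in high. The one lost region, 60 bp wide, lies close to a kept exonic region of the same width 143375 bp into the gene, and neither had OCT4. After Esrrb, 5 of 6 regions were kept at 2900011O08Rik, at Gm15319 and at Tgif1, a homeobox repressor of TGF-beta responses, and 5 of 7 at Odz4, a teneurin. The lowest shares were 1 of 6 at Chn2, Xkr4 and Zmat4, and 2 of 10 at Clybl, a mitochondrial lyase gene, and at Pde4d, a cAMP phosphodiesterase gene. Genes with the most regions had long bodies, with 8 of 13 kept at Arhgap26, 7 of 13 at Ptprg, 5 of 13 at both Etl4 and Fgfr2, 4 of 11 at Auts2, 3 of 10 at Gm20388 and Immp2l, and 3 of 9 at Cdh13. The gene models of Fgfr2 and Gm20388 span 3009 and 4435 kb in the annotation used.

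The naive pluripotency list, 13 genes of the network that marks the ground state, had 27 regions near 10 genes, of which 15 were kept, 55.6% (37.3 to 72.4). That interval includes the 47.7% of all high regions. Beside Esrrb, Klf2 kept 3 of 4 regions, Tbx3 2 of 3, Prdm14 1 of 2 and Nr5a2, a nuclear receptor, 1 of 1. Tcfcp2l1 kept 1 of 4, and Zfp42 (REX1) and Nr0b1 (DAX1) kept 0 of 2 each. At Nanog the single region, 420 bp wide and 4785 bp upstream, was kept, and OCT4 was listed there in medium and not in high. The region 1836 bp upstream of Dppa3, the germ-cell factor also called Stella, was lost although OCT4 was listed there in all 3 fractions. Klf4, Klf5 and Gbx2 had no NANOG region within 20 kb.

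The core and general pluripotency list kept 13 of 27 regions, 48.1% (30.7 to 66.0), close to the 47.7% of all high regions. Both Pou5f1 regions, 1960 and 920 bp upstream and co-bound by OCT4 in all 3 fractions, were kept. Sox2 kept 2 of 3, and a region 15395 bp from its start on the downstream side was gained in medium. Fbxo15, an F-box gene and OCT4 target, kept 1 of 1. Losses were complete at Tdgf1, which encodes the Nodal co-receptor Cripto, 0 of 3, at Lin28a, an RNA-binding inhibitor of let-7 maturation, 0 of 2, and at Dppa2, 0 of 2, whose regions also lie within 20 kb of Dppa4. Such counts are common, since 322 of the 1659 protein-coding genes with 2 or more regions kept none. Sall4 kept 1 of 3, Dppa4 1 of 3, Dppa5a 2 of 4, Utf1 1 of 2 and Zfp281 1 of 2.

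**Figure D5:**
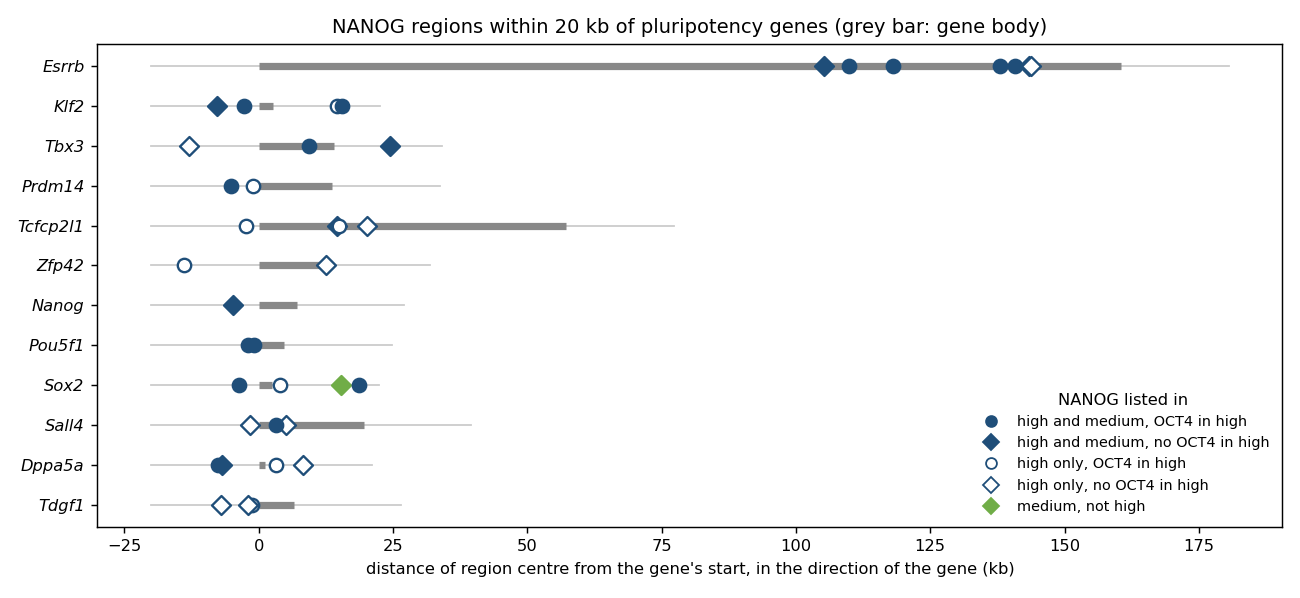
NANOG regions within 20 kb of 12 pluripotency genes, placed by the distance of their centres from the gene's start in the direction of the gene (x axis, kb). Filled blue symbols are kept, open symbols lost and the green symbol gained in medium, circles have OCT4 in high and diamonds do not, and grey bars are gene bodies; Esrrb shows 6 filled and 1 open symbol, and Tdgf1 3 open ones.

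Signalling lists differed in their counts, with small numbers behind each. Genes of the LIF and STAT3 pathway, through which LIF sustains self-renewal, kept 8 of 9 regions, 88.9% (56.5 to 98.0). Socs3, its feedback inhibitor, kept 3 of 3 and the receptor gene Lifr 2 of 3. Nodal and BMP genes kept 10 of 13, 76.9% (49.7 to 91.8), among them 2 of 3 at the ligand gene Gdf3, where the lost region is the one upstream of Dppa3. FGF and ERK genes, which promote exit from pluripotency, kept 12 of 37, 32.4% (19.6 to 48.5), and 7 of 24 without Fgfr2. Counted within 50 kb of the genes in place of 20 kb, that list kept 45.7%, near the share of all regions. Within that list the ETS factor gene Etv5 kept 4 of 9, and the feedback inhibitors Spry4 1 of 4 and Spred2 0 of 4. Wnt genes kept 5 of 13, 38.5% (17.7 to 64.5), with 2 of 3 at the repressor Tcf7l1 and 0 of 3 at Ctnnb1, whose 3 regions are exonic. Of these 4 lists, the intervals of LIF and STAT3 and of Nodal and BMP genes lie above 47.7%. That of FGF and ERK genes includes it by a narrow margin, and that of Wnt genes includes it widely. The Nodal and BMP share was 71.4% within 5 kb and 75% by closest gene only, without intervals of their own. The 10 lists were compared without adjustment of the intervals for their number.

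Formative and primed genes, which mark later epiblast states, kept 8 of 23 regions, 34.8% (18.8 to 55.1). In this list Dnmt3b, a de novo DNA methyltransferase, kept 3 of 3, while Foxd3 kept 0 of 4, Cdh2 (N-cadherin) 0 of 3, Grhl2 1 of 4 and Lef1, a transcription factor of the Wnt pathway, 1 of 3. The TET and DNA methyltransferase list kept 7 of 15, with 3 of 5 at Tet2 and 1 of 3 at Tet1, the dioxygenases that oxidise 5-methylcytosine. Polycomb and histone demethylase genes kept 13 of 22, 59.1% (38.7 to 76.7), with 3 of 3 at Mtf2 and 3 of 5 at Jarid2, both accessory subunits of Polycomb repressive complex 2, 2 of 3 at Kdm4c and 1 of 3 at Kdm2b. Germ layer and extraembryonic factors had 6 regions, 3 of them kept. Over all 10 lists 94 of 191 regions were kept, 49.2% (42.2 to 56.2), close to the 47.7% of all high regions. The intervals of the formative and primed list and of the Polycomb list also include that share.

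The 229 regions gained in medium were narrow and poor in OCT4. Their median width was 80 bp, and 26.2% were 40 bp wide. OCT4 was listed at 24.0% (18.9 to 29.9) of them in high, 27.9% in medium and 17.9% in negative. It was listed at 29.3% in any fraction, against 43.8% of the NANOG high regions. That comparison was not matched for width. Among NANOG high regions, OCT4 in high was listed at 5.33% of those of 40 to 60 bp and 37.8% of those of 80 to 100 bp. ESRRB matches were found in 13.1% (9.33 to 18.1) and NANOG matches in 10.0% (6.79 to 14.6) of them. NANOG was also listed in negative cells at 28 of them, 12.2% (8.60 to 17.1), a larger share than at kept or lost regions. These shares are not directly comparable, because the authors' limit was set from the highest signal of each region. By that limit, a gained region had its highest signal in medium or negative, whereas kept and lost regions could have it in high. The part of this selection in the larger share was not tested. Of the gained regions 40 lie within 500 bp of a high region and the median distance to one is 27800 bp. Among the genes of the lists, 1 each was found near Fgfr2, Jarid2, Lif and Sox2.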

How the data were processed

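ChIP-Seq of NANOG and OCT4 was examined in sorted Esrrb-GFP high, medium and negative ESCs, grouped by antibody and gate as their labels state. The authors aligned reads with Bowtie (mm9), called and merged peaks in GeneProf and applied the 50% signal limit. The deposited lists hold genomic intervals of another kind than counts or signal, with chromosome, start and end only, so no depth can be given. Positions are on mm9, counted from 1.

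High regions were matched to medium by exact interval. Shares have 95% Wilson intervals and differences Newcombe intervals. Widths and GC content were cut at quartiles. Genes came from GENCODE for NCBIM37 (37310 genes, 22380 protein-coding), and 115 of 116 listed genes matched. Motifs were searched within 100 bp of centres.

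Named genes were all naive and core genes with a region within 20 kb, genes of the other lists with at least 3, the 10 protein-coding genes with most regions, and the 5 highest and 5 lowest kept shares among genes with at least 6. One gene that this rule names is not reported here by name, but its regions remain in the counts. Members, lists and tests were chosen with earlier results of these data known. Alternatives covered matching, width, distances, windows and motifs. The tools were samtools 1.23.1 and Python 3.11.15 with pysam 0.24.0, numpy 2.4.6, matplotlib 3.10.9 and statsmodels 0.14.6. On simulated data 21 of 21 known answers were recovered.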

Additional observations from a re-analysis of the deposited data

How the results depend on the processing

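No paired analysis was possible because a single library stands on either side, and for the same reason no replicate could be left out. Of 86 values under alternative settings, 77 stayed close to the value reported. Close means within its counting interval or, for the number of gained regions (229 and 210 against 229), within 1.5 times of it. Some of these could hardly move. No listed region overlaps another, so matching by 1 bp overlap had to repeat the exact match. Intervals of the gene lists are wide, such as 18.8 to 81.2 for germ layer and extraembryonic factors. The 77 also include the reversed letters of SOX and KLF, at 0.402 and -0.129 points, so they are no measure of robustness. The kept share was 51.8% among regions of median width or wider. The difference by OCT4 was 6.74 points within width quartiles, and that between the widest and the narrowest quartile 10.9 points without OCT4 in any fraction. With reversed letters, the difference of regions with minus without a match was 1.94 points for NANOG, -14.4 for the octamer (3 matches in all), 6.11 for Oct-Sox (13 matches) and -1.94 for ESRRB, against 5.84 for the ESRRB motif itself. Within width quartiles split by OCT4, Oct-Sox gave -6.48 points, an alternative added after the data had been seen. LIF and STAT3 genes kept 100% of their regions within 5 kb. The cause of these shifts was not tested. Without reads, depth and the authors' limit in medium cells cannot be told apart from lower binding.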

Other observations

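Regions that hold an Oct-Sox match but no OCT4 in high kept NANOG at 34.0% (26.8 to 42.1; n = 144), below the 43.8% of regions with neither. Co-bound regions with and without an Oct-Sox match kept 52.6% and 54.4%. This class was picked after its values had been seen.

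Among all 6-letter words, read on both strands within 100 bp of the centre and ranked after the fact by the difference between kept and lost regions, the word most frequent in kept over lost regions was GCCTCC, in 19.4% of kept and 15.8% of lost regions. The next was CCAGCC, in 21.6% and 18.0%. The words most frequent in lost over kept regions were AAATGT, in 12.4% and 15.2%, and AAATGG, in 15.5% and 18.0%. The GC content of the windows, with a median of 47% in kept and 46% in lost regions, moved with these words, and its part in them was not tested.

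The kept share differed by a few points with the number of the 6 motifs in a window, of which Oct-Sox overlaps SOX and octamer. Regions with 0 motifs kept 46.6%, those with 1 kept 47.9% and those with 2 kept 51.1% (48.1 to 54.1, n = 1035). Those with 3 kept 50.6% (43.0 to 58.3, n = 160). The 16 regions with 4 or more kept 62.5%, with a wide interval of 38.6 to 81.5.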
